A study of Homo sapiens with 15 samples.

Results

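Transcripts of 45 genes of the extracellular matrix and of the enzymes that build, cross-link and cut it were compared over 5 human neuroblastoma cell lines. The genes were listed by name: collagens, basement membrane components, adhesive and matricellular glycoproteins, fibrillins, proteoglycans, lysyl oxidases, collagen hydroxylases, and metalloproteinases with their inhibitors. Each gene was read from the 1 probe set (the group of oligonucleotides on the array that reports a transcript) with the highest mean intensity over all arrays. All 45 were among the 18244 genes with a probe set naming them alone. To be tested, a gene had to reach an intensity of 80.6, the median of all values, as the mean of at least 1 line, which 42 of the 45 and 12776 of the 18244 did. The probe sets used for COL1A2, TNC and FBN2 stayed below it, and these 3 genes were not tested. Of the other probe sets of these 3, a single one reached it, for TNC, with a mean of 89.1 in NGP.

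The lines were KELLY, NGP, BE(2)-C, SH-SY5Y and SK-N-AS, with no treatment or modification named in the labels, and with 3 arrays of total RNA each and 15 arrays in all. All were grown in DMEM with 10% fetal bovine serum. From general knowledge of the lines, NGP, BE(2)-C and KELLY carry amplified MYCN and SK-N-AS and SH-SY5Y do not, SH-SY5Y is a clonal subline of SK-N-SH, and BE(2)-C is a clonal subline of SK-N-BE(2). Each is a single tumour-derived line in culture, so the arrays of a line show that line and not a class of tumours. The labels number the arrays without naming separate cultures, so a p-value over arrays reflects only how far these samples vary, and that variation may be technical.

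The extracellular matrix is the network of secreted proteins around cells. Fibrillar collagens and collagen VI form its fibres and filaments, while collagen IV, laminins, nidogens and heparan sulphate proteoglycans such as perlecan and agrin form the thin sheets called basement membranes. Prolyl and lysyl hydroxylases modify collagen chains inside the cell, lysyl oxidases cross-link the secreted fibres, and metalloproteinases cut matrix proteins under the control of the TIMP inhibitors. In neuroblastoma tumours much matrix is made by stromal cells and Schwann cells, and neuroblastoma lines of the mesenchymal kind are known to make more matrix than those of the adrenergic kind.

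The deposited intensities are linear and were not brought to a common level, since the median intensity of an array ran from 121 to 126.4 (SK-N-AS), 102 to 103 (BE(2)-C), 73.4 to 78.7 (NGP), 66.7 to 69.3 (KELLY) and 51.9 to 57.2 (SH-SY5Y). Most genes were therefore brighter in SK-N-AS, and most differences below carry the deposited value and the centred one, for which the median of the tested genes was subtracted on every array. Centring moved the lines by 0.70 (SK-N-AS), 0.49 (BE(2)-C), -0.12 (NGP), -0.42 (KELLY) and -0.64 (SH-SY5Y) on the log2 scale relative to their mean. The median of the ERCC control probe sets, RNA added at lysis, was close to level, from 4.77 ± 0.084 in SH-SY5Y to 4.89 ± 0.0053 in BE(2)-C on the log2 scale (SD, n = 3). In every line this median lay below 6.35, the filter on that scale, where dim values limit what the arrays can separate. Its bearing on the choice between the scales was not tested, and the centred values describe a gene relative to the other genes of its array. Over the tested members, the lowest correlation of a pair of arrays of 1 line was 0.991 and the highest between lines was 0.794. The 3' minus 5' difference of the ACTB control probe sets, a measure of RNA integrity, was lowest in SK-N-AS, at 0.71 ± 0.06 on the log2 scale, with 0.97 ± 0.07 for BE(2)-C and 1.23 ± 0.08 for NGP at the ends of the range of the rest (SD, n = 3). For GAPDH it was 0.19 ± 0.05 in SK-N-AS, within the range from 0.18 ± 0.02 (BE(2)-C) to 0.35 ± 0.03 (SH-SY5Y), and the part of either in the differences below was not tested.

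Most matrix genes were brightest in SK-N-AS, which had the highest mean of the 5 lines for 32 of the 42 tested members on the deposited scale and for 24 after centring. Over all tested genes SK-N-AS was brightest for 54.5% and, after centring, for 23.2%. SH-SY5Y was brightest for 0 members on the deposited scale and for 1 after centring, beside 1.38% and 17.4% of all tested genes. It was dimmest for 25 and 13 members. The share of all tested genes dimmest in SH-SY5Y was not computed, so these counts are not read as a trait of matrix genes. The line means of a member spanned a median of 3.54 on the log2 scale, from 0.64 for COL5A2 to 9.56 for COL3A1, against a median of 1.72 over all tested genes. In bulk RNA, fewer cells of a type and less RNA per cell cannot be told apart.

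**Figure D1:**
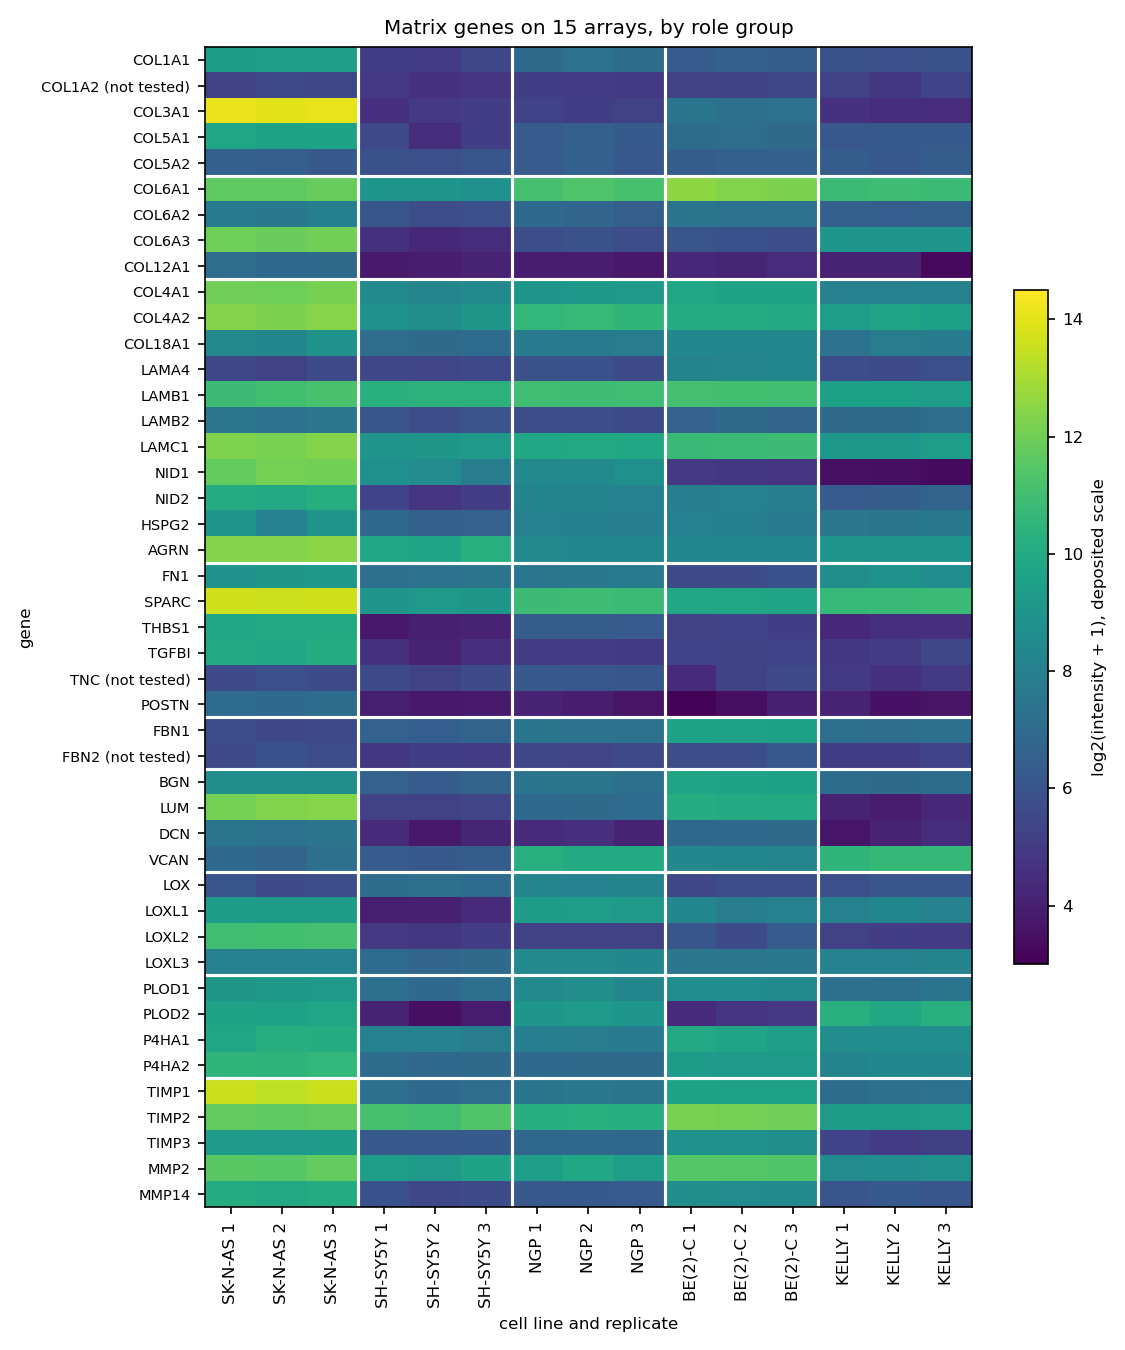
Log2(intensity + 1) on the deposited scale of the 45 genes (rows, with white lines between role groups) on the 15 arrays (columns, with white lines between lines), from dark blue (low) to yellow (high). Most rows are brightest in the SK-N-AS columns, as for COL3A1, SPARC and TIMP1, while LAMA4, FBN1 and BGN are brightest in BE(2)-C and VCAN and PLOD2 in KELLY.

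Differences between lines were called with limma at a Benjamini-Hochberg adjusted p under 0.05 and at least 1 on the log2 scale, which is a doubling. SE is the standard error of a difference in that fit, and adjusted p its limma p-value. Of the 42 tested members, 35 were higher and 1 lower in SK-N-AS than in SH-SY5Y, where 64.2% and 4.38% of all tested genes were. Against KELLY the counts were 31 higher and 2 lower (all genes 49.2% and 5.42%), against NGP 29 and 3 (36.8% and 7.63%), and against BE(2)-C 23 and 3 (16.1% and 9.92%). The background was high on this scale, so the centred counts carry the comparison with it. After centring, SK-N-AS was higher for 25 members against SH-SY5Y (11.8% of all genes), 24 against KELLY (13.7%), 24 against NGP (14.6%) and 23 against BE(2)-C (12.7%). It was lower for 3, 7, 5 and 4 members in the same order (14.7%, 15.9%, 16.1% and 12.8%). The median member was 1.75, 1.71, 1.28 and 1.15 higher in SK-N-AS on the centred log2 scale, and the median of all tested genes was -0.12, -0.14, -0.12 and -0.06.

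**Figure D2:**
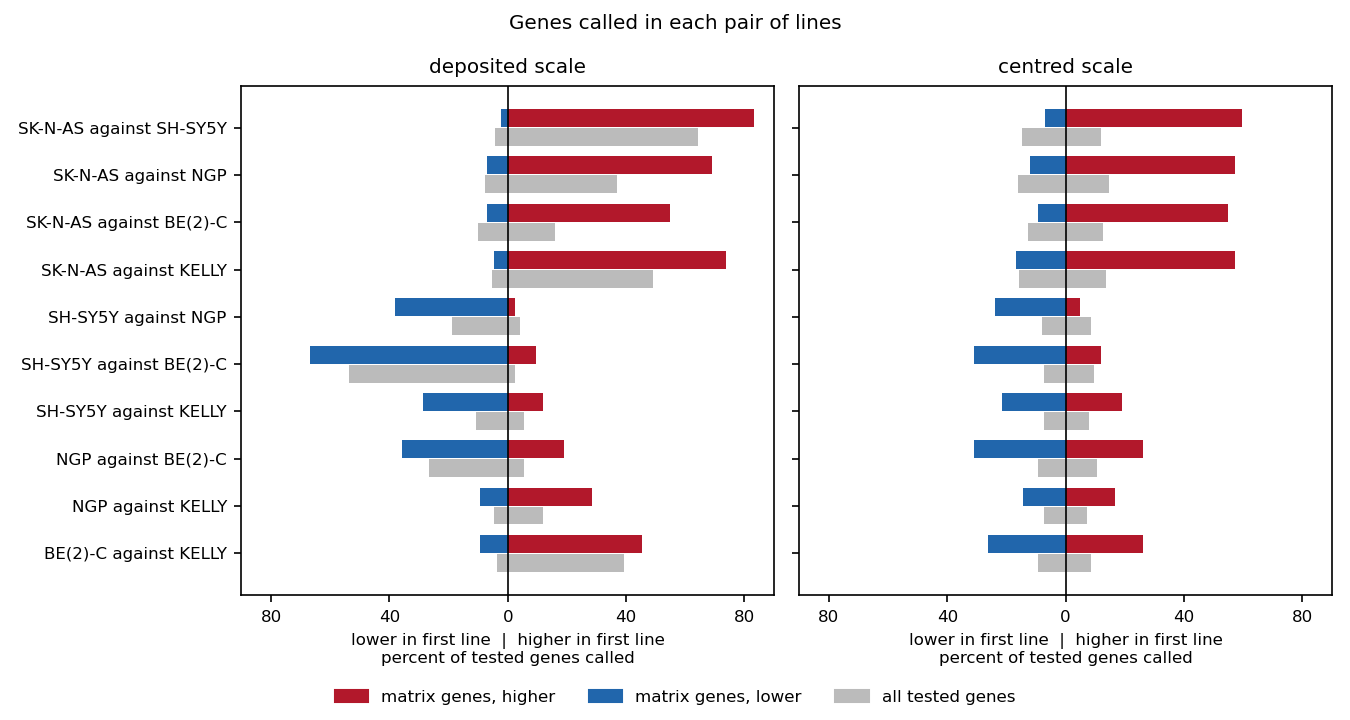
Percent of tested matrix genes (coloured bars) and of all tested genes (grey bars) called higher (right of 0) or lower (left of 0) in the first-named line of each of the 10 pairs, on the deposited scale and on the centred scale. In the 4 pairs with SK-N-AS the red bars reach well past the grey ones on both scales, as 23 to 25 members against 11.8% to 14.6% of all genes after centring.

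A gene was said to mark a line when it was called in the same direction against each of the 4 other lines. SK-N-AS was marked as higher by 20 members on the deposited scale (12.9% of all tested genes) and by 19 after centring (5.85%). The 20 were COL1A1, COL3A1, COL5A1, COL6A3, COL12A1, COL4A1, COL4A2, LAMC1, NID1, NID2, AGRN, SPARC, THBS1, TGFBI, POSTN, LUM, LOXL2, P4HA2, TIMP1 and MMP14, and COL4A2 alone was lost on centring. As lower in SK-N-AS, 0 members were marked in limma on the deposited scale (2.13% of all genes; 1 member at an unadjusted p under 0.05 in all 4 contrasts with no fold minimum) and 2, LAMA4 and FBN1, after centring (5.71%). The 20 span 8 of the 9 role groups, fibrillins being the exception. With the probe sets used, COL12A1, TGFBI, POSTN and LOXL2 passed the filter in SK-N-AS alone and LAMA4 in BE(2)-C alone, so these 5 had to differ between lines once tested, whereas 17 members passed it in all 5 lines.

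**Figure D3:**
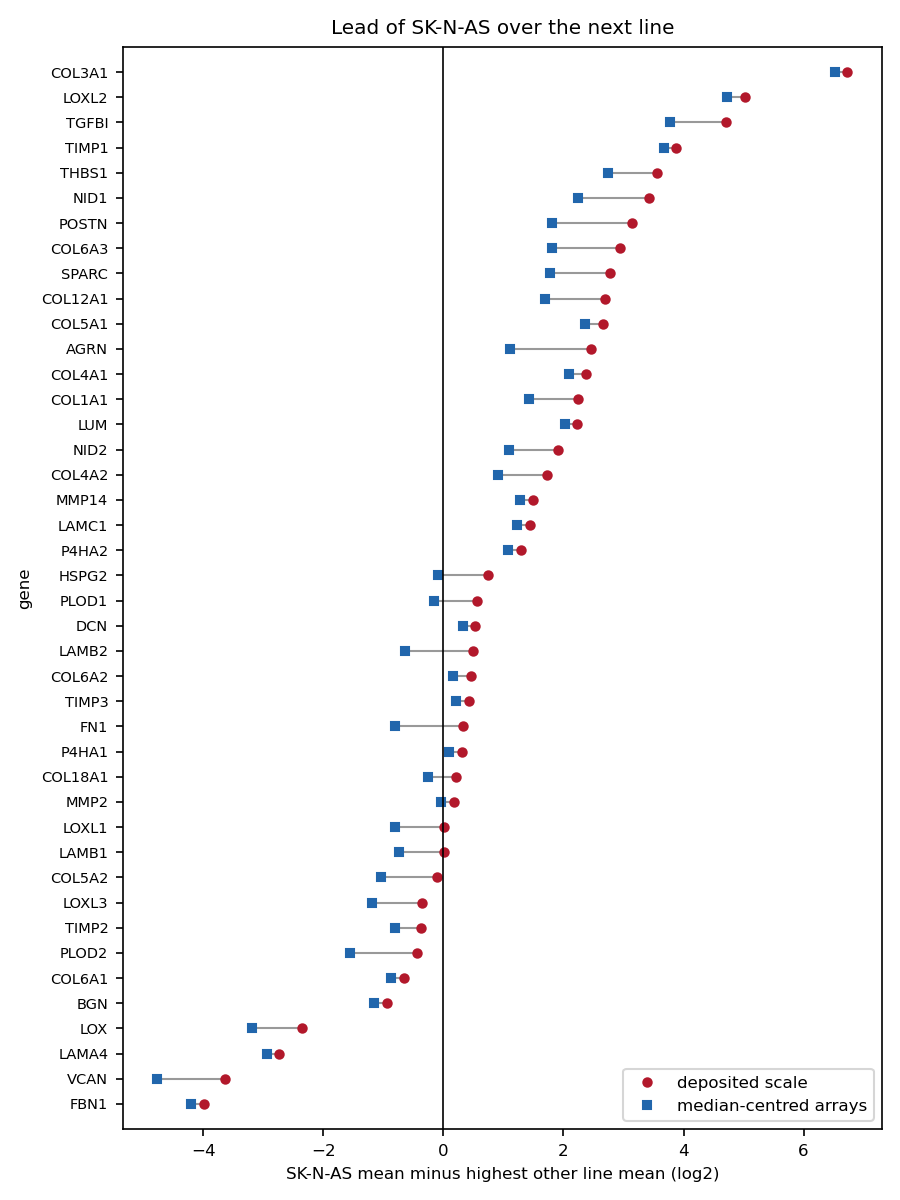
Difference on the log2 scale between the mean of SK-N-AS and that of the brightest other line for each of the 42 tested members (rows, in order of the deposited value), on the deposited scale (circles) and the centred scale (squares). Values run from COL3A1 (6.73 deposited, 6.52 centred) at the top to VCAN and FBN1 at the bottom, below 0 on both scales.

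Among the fibrillar collagens, the rope-forming collagens of connective tissue, SK-N-AS was higher than each other line for COL1A1, COL3A1 and COL5A1 of the 4 tested. These marks held on both scales, beside 12.9% (deposited) and 5.85% (centred) of all tested genes. COL3A1, the single chain of collagen III, read 18074, 16686 and 17819 on SK-N-AS arrays, 177, 153 and 162 on BE(2)-C arrays, 38.7, 33.9 and 38.1 on NGP arrays, 23.4, 28.7 and 33.5 on SH-SY5Y arrays, and 24.1, 21.4 and 21.3 on KELLY arrays. The SK-N-AS arrays stood far above all others and those of BE(2)-C came next, while the ranges of SH-SY5Y and KELLY overlapped. The difference of SK-N-AS from BE(2)-C was 6.73 (SE 0.11, adjusted p = 3.56e-25) on the log2 scale and 6.52 after centring, and that of BE(2)-C from NGP was 2.12 (SE 0.11, adjusted p = 4.66e-15) and 1.51.

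COL5A1, a chain of collagen V, which helps start collagen I fibrils, read 883, 824 and 809 on SK-N-AS arrays, 133, 138 and 125 on BE(2)-C arrays, 78.6, 89.99 and 75.2 on NGP arrays, 68.3, 76.6 and 76.5 on KELLY arrays, and 44.8, 22.0 and 32.8 on SH-SY5Y arrays. SK-N-AS was the highest line and SH-SY5Y the lowest with no overlap, and NGP and KELLY overlapped. SK-N-AS exceeded BE(2)-C by 2.66 on the log2 scale (SE 0.15, adjusted p = 3.86e-14, centred 2.45). COL1A1 and COL1A2, the chains of collagen I, and COL5A2, the partner chain of COL5A1, were looked at after their values were seen. COL1A1 averaged 659 ± 45.1 (SD, n = 3, as for all line means below) in SK-N-AS, and NGP was next with 139 ± 20.1, a difference of 2.24 on the log2 scale (SE 0.12, adjusted p = 3.81e-15, centred 1.42). The highest line mean of COL1A2 over its 6 probe sets was 41.9, below the filter, so no difference of it was tested. COL5A2 ran from 58.0 ± 3.35 in SH-SY5Y to 90.8 ± 6.83 in BE(2)-C, and none of its 10 pairs was called on the deposited scale. Its difference of BE(2)-C from SH-SY5Y was 0.64 on the log2 scale and -0.50 after centring, so its direction turned. After centring COL5A2 was dimmest in SK-N-AS and brightest in KELLY, and SK-N-AS minus KELLY was -1.04 on the log2 scale.

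The chains of collagen VI, which forms beaded filaments between cells and fibres, did not share 1 order of lines. COL6A3 read 4037, 3764 and 4186 on SK-N-AS arrays, 518, 519.7 and 523 on KELLY arrays, 62.1, 57.9 and 52.5 on BE(2)-C arrays, 53.2, 57.1 and 51.5 on NGP arrays, and 25.1, 19.0 and 21.7 on SH-SY5Y arrays. SK-N-AS and KELLY were separate from each other and from the rest, NGP and BE(2)-C overlapped, and SH-SY5Y was lowest. SK-N-AS exceeded KELLY by 2.94 on the log2 scale (SE 0.10, adjusted p = 2.78e-19, centred 1.81), and KELLY exceeded BE(2)-C by 3.16 (SE 0.10, adjusted p = 1.94e-19, centred 4.07). KELLY was also second in another COL6A3 probe set, at 257 against 48.8 in BE(2)-C. In a further one only SK-N-AS reached the filter, at 101, and KELLY averaged 37.2, below BE(2)-C at 43.3 and NGP at 42.6. The lead of KELLY over BE(2)-C and NGP therefore rests on the probe set.

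COL6A1 read 5901, 5077 and 4846 on BE(2)-C arrays, 3211, 3194 and 3613 on SK-N-AS arrays, 2238, 2539.6 and 2295 on NGP arrays, 1827, 1937 and 1819 on KELLY arrays, and 525, 527 and 444 on SH-SY5Y arrays. All 5 ranges were separate, with BE(2)-C on top and SH-SY5Y at the bottom. BE(2)-C was above SK-N-AS by 0.66 on the log2 scale (SE 0.09, adjusted p = 2.5e-07, centred 0.87), short of a doubling, and SH-SY5Y was below every other line on both scales, by 1.90 (SE 0.09, adjusted p = 1.19e-15) against KELLY (1.68 centred). COL6A2 was called higher in SK-N-AS than in SH-SY5Y, NGP and KELLY on the deposited scale and in 0 pairs after centring, where its difference of SK-N-AS from SH-SY5Y was 0.57 against 1.92 before. COL12A1, a collagen that binds along fibrils, marked SK-N-AS at 127 ± 8.15, with other lines at 19.0 ± 2.06 or less. Its other probe sets stayed below the filter in all lines. SK-N-AS averaged 27.1 there against 23.2 in BE(2)-C, 12.6 against 16.9 in KELLY, and 16.4 against 19.4 in NGP. The COL12A1 mark therefore rests on the probe set used.

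Of the 11 basement membrane genes, 6 marked SK-N-AS as higher on the deposited scale, namely COL4A1, COL4A2, LAMC1, NID1, NID2 and AGRN, beside 12.9% of all tested genes. After centring COL4A2 lost its mark and the others kept theirs, beside 5.85% of all tested genes. NID1, a nidogen that links laminin to collagen IV, read 3559, 4413 and 4220.3 on SK-N-AS arrays, 335, 358 and 435 on NGP arrays, 438, 378 and 225 on SH-SY5Y arrays, 28.8, 27.8 and 25.8 on BE(2)-C arrays, and 10.6, 10.2 and 9.11 on KELLY arrays. SK-N-AS was highest, SH-SY5Y and NGP overlapped in the middle, and BE(2)-C and KELLY were lowest and separate. SK-N-AS exceeded NGP by 3.43 on the log2 scale (SE 0.16, adjusted p = 2.75e-16, centred 2.61) and NGP exceeded BE(2)-C by 3.72 (SE 0.16, adjusted p = 1.21e-16, centred 4.33). Both BE(2)-C and KELLY lay far below the filter, and their order was not read from these values. In the other 2 NID1 probe sets the means of BE(2)-C and KELLY were 48.4 and 30.4, and 47.7 and 37.9, each less than a doubling apart. The means of NGP there were 111.6 and 50.1, so the size of its lead over BE(2)-C rests on the probe set.

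NID2, the second nidogen, read 1065, 991 and 1149.9 on SK-N-AS arrays, 294, 287 and 268 on NGP arrays, 244, 265 and 241 on BE(2)-C arrays, 78.7, 83.5 and 100.5 on KELLY arrays, and 39.3, 26.2 and 32.7 on SH-SY5Y arrays. None of the 5 ranges overlapped, and SH-SY5Y rather than KELLY was lowest. SK-N-AS exceeded NGP by 1.91 on the log2 scale (SE 0.12, adjusted p = 7.09e-14, centred 1.09), and KELLY exceeded SH-SY5Y by 1.40 (SE 0.12, adjusted p = 1e-10, centred 1.18).

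LAMA4, a laminin alpha chain known from vessel walls, read 279.8, 303 and 307 on BE(2)-C arrays, 57.7, 59.0 and 47.3 on NGP arrays, 51.4, 47.2 and 54.8 on KELLY arrays, 43.6, 38.1 and 50.1 on SK-N-AS arrays, and 42.1, 41.0 and 46.0 on SH-SY5Y arrays. With this probe set BE(2)-C alone stood out, and the other lines lay below the filter of 80.6 with ranges that in part overlapped. BE(2)-C exceeded NGP by 2.42 on the log2 scale (SE 0.12, adjusted p = 2.14e-15, centred 1.81). BE(2)-C was also the brightest line in the other 2 LAMA4 probe sets above the filter, but SK-N-AS was second in both, with means of 55.4 against 153 in one and 103 against 113 in the other. LAMA4 as a mark of BE(2)-C, and as lower in SK-N-AS after centring, therefore rests on the probe set. The other laminin chains had different orders. LAMC1 marked SK-N-AS, whereas LAMB1, lowest in KELLY, was 1.54 higher in SK-N-AS than in KELLY on the log2 scale and 0.41 after centring. HSPG2, which encodes perlecan, and COL18A1 were called higher in SK-N-AS than in SH-SY5Y only before centring. AGRN, which encodes agrin, averaged 324 ± 9.79 (BE(2)-C), 325 ± 16.8 (NGP), 499 ± 8.46 (KELLY) and 1001 ± 182 (SH-SY5Y), and 5449 ± 347 (SK-N-AS). The AGRN margin of SK-N-AS over BE(2)-C was 4.07 on the log2 scale with this probe set and 0.38 when probe sets that can match related transcripts were left out, so it rests on the probe set.

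COL4A1 and COL4A2, the main chains of collagen IV, lie head to head on chromosome 13 and are known to share a promoter between them. They were looked at as a pair after their values were seen. COL4A1 averaged 259.6 ± 2.20 (KELLY), 339 ± 31.4 (SH-SY5Y), 553 ± 20.2 (NGP), 813 ± 38.5 (BE(2)-C) and 4206 ± 284 (SK-N-AS). COL4A2 averaged 761 ± 79.4, 479.9 ± 66.3, 1561 ± 117, 1071 ± 49.1 and 5174 ± 336 in the same order of lines. SK-N-AS was highest for both, while NGP lay below BE(2)-C for COL4A1 and above it for COL4A2 on the deposited scale. NGP minus BE(2)-C was -0.55 on the log2 scale (SE 0.08, adjusted p = 7.58e-07, centred 0.06) for COL4A1, which turned on centring, and 0.54 (SE 0.09, adjusted p = 1.26e-05, centred 1.15) for COL4A2. After centring the COL4A2 margin of SK-N-AS over NGP was 0.90, below a doubling. The sequence shown next, from the RefSeq table of GRCh38.p14, is the stretch of 126 bases between both starts (chr13:110307158-110307283, plus strand, 80.2% G and C), printed because it serves both genes. Capitals mark the CCAAT box (its letters give its name) and the GC box (GGGCGG) found in it.
COL4A1-COL4A2: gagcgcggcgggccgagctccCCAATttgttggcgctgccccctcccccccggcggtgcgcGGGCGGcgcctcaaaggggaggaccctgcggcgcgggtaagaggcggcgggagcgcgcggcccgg

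Of the 6 adhesive and matricellular glycoproteins, 4 marked SK-N-AS as higher on both scales (SPARC, THBS1, TGFBI and POSTN). Of all tested genes, 12.9% did so on the deposited scale and 5.85% after centring. TNC was not tested, and TGFBI and POSTN passed the filter in SK-N-AS alone, so these 2 had to differ between lines once tested. THBS1, thrombospondin 1, a target of TGF-beta and of YAP with TEAD factors in many cell types, read 887, 1019 and 1001 on SK-N-AS arrays, 81.9, 83.6 and 77.9 on NGP arrays, 37.6, 38.2 and 33.8 on BE(2)-C arrays, 19.3, 23.0 and 22.5 on KELLY arrays, and 12.7, 14.99 and 16.8 on SH-SY5Y arrays. All 5 ranges were separate, and only SK-N-AS and 2 of the NGP arrays reached the filter. SK-N-AS exceeded NGP by 3.56 on the log2 scale (SE 0.12, adjusted p = 3.35e-19, centred 2.73), and NGP exceeded BE(2)-C by 1.13 (SE 0.12, adjusted p = 3.19e-09, centred 1.74). In the other THBS1 probe sets that reached the filter in SK-N-AS, NGP and BE(2)-C were closer. They averaged 36.5 and 25.9, 35.9 and 34.1, and 18.6 and 19.4, each less than a doubling apart. The call of NGP over BE(2)-C therefore rests on the probe set used.

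TGFBI, a secreted adhesion protein induced by TGF-beta, read 1060.5, 957 and 1109.9 on SK-N-AS arrays, 38.6, 40.0 and 38.4 on BE(2)-C arrays, 28.5, 31.1 and 44.1 on KELLY arrays, 32.3, 30.6 and 30.5 on NGP arrays, and 25.1, 16.4 and 23.1 on SH-SY5Y arrays. SK-N-AS was far above a low group of 4 lines in which KELLY overlapped NGP and BE(2)-C. SK-N-AS exceeded BE(2)-C by 4.70 on the log2 scale (SE 0.15, adjusted p = 1.76e-19, centred 4.49). SPARC, a collagen-binding glycoprotein, averaged 12969 ± 231 in SK-N-AS, and the rest lay between 538 ± 31.9 (SH-SY5Y) and 1893 ± 78.9 (NGP), with SK-N-AS minus NGP at 2.78 on the log2 scale (SE 0.07, adjusted p = 4.18e-21, centred 1.95).

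FN1, fibronectin, did not follow that order and read 483, 542 and 558 on SK-N-AS arrays, 416, 464 and 388 on KELLY arrays, 183, 196 and 209.8 on NGP arrays, 146, 161 and 169 on SH-SY5Y arrays, and 49.7, 49.2 and 58.1 on BE(2)-C arrays. SK-N-AS and KELLY were high, BE(2)-C was lowest, and no ranges overlapped. BE(2)-C was below SH-SY5Y, the next line, by 1.58 on the log2 scale (SE 0.10, adjusted p = 8.16e-14, centred 2.72), and SK-N-AS minus KELLY was 0.32 (SE 0.10, adjusted p = 0.0031) on the deposited scale and -0.80 after centring, so these lines changed order. FN1 was the single member marking BE(2)-C as lower, and the count fell to 0 when the gene's probe sets were averaged or those that match related transcripts were left out.

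FBN1, fibrillin 1, the main protein of microfibrils, read 819, 762 and 753 on BE(2)-C arrays, 178, 166 and 161 on NGP arrays, 141, 139 and 145 on KELLY arrays, 96.7, 85.6 and 105 on SH-SY5Y arrays, and 52.7, 44.3 and 47.3 on SK-N-AS arrays. BE(2)-C was highest and SK-N-AS lowest, with 5 separate ranges. BE(2)-C exceeded NGP by 2.20 on the log2 scale (SE 0.09, adjusted p = 1.22e-16, centred 1.59), and SK-N-AS was below SH-SY5Y by 0.98 (SE 0.09, adjusted p = 3.6e-10, centred 2.32). Between SK-N-AS and BE(2)-C, FBN1 and THBS1 were called in opposite directions on both scales. Its promoter and that of THBS1 are shown because both hold the letters CATTCC, the core that TEAD factors bind, on the minus strand relative to the gene. The windows are the 250 bases before each RefSeq start in GRCh38.p14 (THBS1, chr15:39580829-39581078, plus strand; FBN1, chr15:48644971-48645220, minus strand), with capitals for matches to the CCAAT box, the GC box and this TEAD core on either strand.
THBS1: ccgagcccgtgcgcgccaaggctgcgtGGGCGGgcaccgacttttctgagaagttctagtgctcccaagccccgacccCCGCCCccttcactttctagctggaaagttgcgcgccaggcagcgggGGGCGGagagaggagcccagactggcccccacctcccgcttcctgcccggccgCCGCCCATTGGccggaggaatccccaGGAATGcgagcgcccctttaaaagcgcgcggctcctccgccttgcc
FBN1: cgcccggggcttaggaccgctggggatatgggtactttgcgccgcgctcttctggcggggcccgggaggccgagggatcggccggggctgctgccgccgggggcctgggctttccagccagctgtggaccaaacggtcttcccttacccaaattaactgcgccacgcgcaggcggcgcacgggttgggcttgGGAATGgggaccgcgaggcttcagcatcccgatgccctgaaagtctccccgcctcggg
CATTCC was found in the windows of 5 of the 34 members with a promoter in the table (LOXL3, SPARC, COL12A1, THBS1 and FBN1) and in 11.9% of 27305 promoters. The AP-1 letters TGANTCA were found in 1 member, POSTN, and in 6.6% of promoters. The GC box was found in 25 of the 34 and in 42.3% of promoters, the CCAAT box in 12 and 33.0%, and the TATA box (TATAAA) in 3 and 11.1%, both strands being searched. A match describes these letters and is not evidence of binding.

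The proteoglycans were split between lines. LUM, lumican, which regulates collagen fibril thickness, read 4341, 5190.0 and 5397 on SK-N-AS arrays, 1102, 1039.9 and 1023 on BE(2)-C arrays, 122.9, 126.4 and 130.1 on NGP arrays, 36.2, 37.2 and 41.3 on SH-SY5Y arrays, and 15.9, 14.2 and 19.2 on KELLY arrays. The 5 ranges were separate, with SK-N-AS and then BE(2)-C on top and KELLY at the bottom. All 10 of its pairs were called on both scales, and SK-N-AS exceeded BE(2)-C by 2.23 on the log2 scale (SE 0.10, adjusted p = 3.6e-16, centred 2.02). DCN, decorin, which neighbours LUM on chromosome 12 and was looked at for that after its values were seen, was also high only in SK-N-AS (169.8 ± 8.52) and BE(2)-C (117 ± 7.33), with the other lines at 19.5 ± 3.15 or less. SK-N-AS minus BE(2)-C was 0.53 on the log2 scale (SE 0.18, adjusted p = 0.00981, centred 0.32) for DCN, short of a doubling. BGN, biglycan, was highest in BE(2)-C at 794 ± 43.0 and next in SK-N-AS at 413 ± 12.2. BE(2)-C minus SK-N-AS was 0.94 on the log2 scale (SE 0.09, adjusted p = 1.19e-09, centred 1.15).

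VCAN, versican, a large proteoglycan of loose and developing matrix, read 1484, 1611 and 1603 on KELLY arrays, 1177, 1053 and 1049 on NGP arrays, 323, 314 and 299 on BE(2)-C arrays, 122.8, 106 and 149 on SK-N-AS arrays, and 80.5, 73.9 and 83.0 on SH-SY5Y arrays. The 5 ranges were separate, and the 3 lines with amplified MYCN stood above both others. VCAN was the 1 member called higher in each of the 6 contrasts of NGP, BE(2)-C and KELLY with SK-N-AS and SH-SY5Y (0.704% of all tested genes). The smallest of the 6 was BE(2)-C minus SK-N-AS at 1.32 (SE 0.10, adjusted p = 7.98e-12) on the log2 scale. After centring BE(2)-C minus SH-SY5Y was 0.83 and the count in limma was 0 (0.579% of all genes; 3 members at an unadjusted p under 0.05 with no fold minimum). In the other direction, 0 members were called in limma on the deposited scale (0.352% of all genes; 1 member at an unadjusted p under 0.05 in all 6 contrasts with no fold minimum) and 1, AGRN, after centring (0.579%). In the other AGRN probe set SH-SY5Y averaged 64.0 on the deposited scale, below KELLY at 76.7, NGP at 88.9 and BE(2)-C at 106. That probe set was not tested for the classes after centring. The VCAN promoter, 250 bases at chr5:83471494-83471743 on the plus strand of GRCh38.p14, is printed because VCAN ran against the order of most members. The capitals are a GC box match on the other strand.
VCAN: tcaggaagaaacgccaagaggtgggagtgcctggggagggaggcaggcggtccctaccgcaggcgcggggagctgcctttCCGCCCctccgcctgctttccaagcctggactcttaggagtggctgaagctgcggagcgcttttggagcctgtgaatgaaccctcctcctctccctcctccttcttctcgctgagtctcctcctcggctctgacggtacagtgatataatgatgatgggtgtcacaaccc

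**Figure D4:**
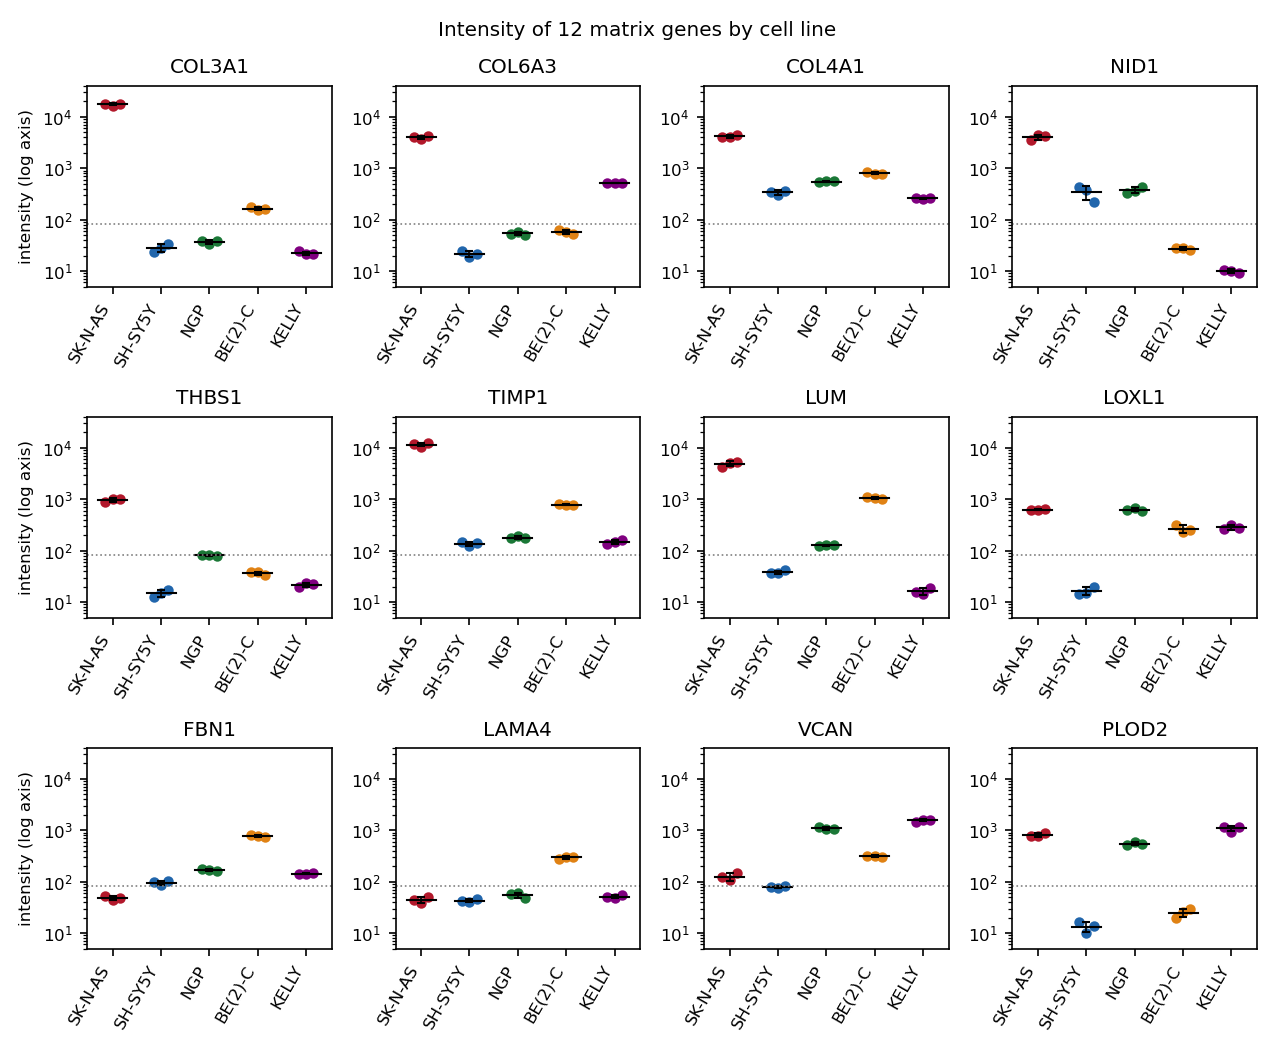
Intensity (log axis) of 12 of the matrix genes in the 5 lines, with 1 point per array, a horizontal line for the line mean, whiskers for the SD (n = 3) and a dotted line at the filter of 80.6. SK-N-AS is highest for COL3A1, COL6A3, COL4A1, NID1, THBS1, TIMP1 and LUM, BE(2)-C for FBN1 and LAMA4, and KELLY for VCAN and PLOD2, while SH-SY5Y is far below the other lines for LOXL1.

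The 4 lysyl oxidases, which cross-link collagen and elastin, each had their own order of lines. LOXL2 read 2018, 2050.2 and 2184 on SK-N-AS arrays, 65.6, 50.1 and 76.7 on BE(2)-C arrays, 36.9, 38.0 and 37.5 on NGP arrays, 36.0, 33.0 and 32.0 on KELLY arrays, and 29.5, 27.8 and 33.2 on SH-SY5Y arrays. Only the SK-N-AS arrays reached the filter, and SH-SY5Y and KELLY overlapped below it. SK-N-AS exceeded BE(2)-C by 5.02 on the log2 scale (SE 0.12, adjusted p = 8.52e-22, centred 4.81).

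LOXL1 read 629.8, 607 and 661 on SK-N-AS arrays, 628, 673 and 582 on NGP arrays, 261, 313 and 276 on KELLY arrays, 317, 227 and 253 on BE(2)-C arrays, and 14.47, 15.2 and 19.9 on SH-SY5Y arrays. SK-N-AS overlapped NGP, BE(2)-C overlapped KELLY, and SH-SY5Y was far below all. KELLY exceeded SH-SY5Y by 4.03 on the log2 scale (SE 0.12, adjusted p = 1.55e-19, centred 3.81) and BE(2)-C did by 3.92 (SE 0.12, adjusted p = 1.16e-19, centred 2.79).

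LOX itself read 303, 269 and 288 on NGP arrays, 131, 149 and 127 on SH-SY5Y arrays, 54.6, 65.4 and 66.2 on KELLY arrays, 62.3, 50.0 and 53.2 on SK-N-AS arrays, and 43.1, 53.9 and 53.4 on BE(2)-C arrays. NGP was highest, SH-SY5Y followed, and the other 3 lines lay below the filter with SK-N-AS overlapping both others. NGP exceeded SH-SY5Y by 1.08 (SE 0.12, adjusted p = 8.03e-09) on the log2 scale, and by 0.55 after centring, where LOX no longer marked NGP. A second LOX probe set, which can match related transcripts, averaged 99.1 in NGP, 135 in BE(2)-C and 131 in SK-N-AS, and with it NGP minus BE(2)-C turned from 2.50 to -0.45. In the remaining LOX probe sets NGP was the brightest line on the deposited scale. Those above the filter averaged 218, 107 and 88.7 in NGP against 96.1, 56.2 and 55.8 in SH-SY5Y, and the one below it 78.5 against 50.6. LOXL3 was lowest in SH-SY5Y at 120.0 ± 11.2 and highest in NGP at 335 ± 17.4 on the deposited scale, a difference of 1.48 on the log2 scale (SE 0.08, adjusted p = 6.11e-14, centred 0.96) that lost its call on centring, where KELLY was highest and BE(2)-C lowest.

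Of the collagen hydroxylases, PLOD2, the lysyl hydroxylase of collagen telopeptides, read 1181, 945 and 1177 on KELLY arrays, 778, 766 and 889 on SK-N-AS arrays, 519.7, 594 and 532 on NGP arrays, 19.98, 26.3 and 29.1 on BE(2)-C arrays, and 16.2, 10.2 and 13.5 on SH-SY5Y arrays. KELLY, SK-N-AS and NGP were high, and BE(2)-C and SH-SY5Y were low with no overlap between any lines. NGP exceeded BE(2)-C by 4.41 on the log2 scale (SE 0.14, adjusted p = 2.5e-19, centred 5.02). KELLY minus SK-N-AS was 0.44 (SE 0.14, adjusted p = 0.00437) on the deposited scale and 1.56 after centring, where PLOD2 marked KELLY as higher. The promoter is shown because PLOD2 was high in some lines and low in others of either MYCN class (chr3:146161185-146161434, minus strand, GRCh38.p14; capitals, matches to the CCAAT box and the GC box on either strand).
PLOD2: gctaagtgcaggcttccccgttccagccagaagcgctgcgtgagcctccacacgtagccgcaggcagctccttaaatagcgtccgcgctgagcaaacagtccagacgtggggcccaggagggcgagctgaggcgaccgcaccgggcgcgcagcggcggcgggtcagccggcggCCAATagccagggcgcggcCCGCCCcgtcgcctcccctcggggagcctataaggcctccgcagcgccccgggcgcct

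P4HA2, an alpha subunit of prolyl 4-hydroxylase, read 1469, 1406 and 1576 on SK-N-AS arrays, 646, 605 and 572 on BE(2)-C arrays, 295, 327 and 321 on KELLY arrays, 122, 127 and 126.0 on NGP arrays, and 132, 113 and 126.0 on SH-SY5Y arrays. SK-N-AS was highest, then BE(2)-C and KELLY, and SH-SY5Y and NGP overlapped at the bottom. SK-N-AS exceeded BE(2)-C by 1.29 on the log2 scale (SE 0.08, adjusted p = 4.57e-13, centred 1.07). P4HA1, its sister subunit, was 1045 ± 156 in SK-N-AS and 844 ± 146 in BE(2)-C, a difference of 0.31 on the log2 scale (SE 0.11, adjusted p = 0.0166, centred 0.10), less than a doubling. PLOD1 was called in 6 pairs on the deposited scale and in 0 after centring.

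Among the metalloproteinases and inhibitors, TIMP1, a secreted inhibitor of most metalloproteinases, read 12064, 10643 and 12222 on SK-N-AS arrays, 815, 775 and 772 on BE(2)-C arrays, 174, 192 and 173 on NGP arrays, 134, 147 and 159 on KELLY arrays, and 148, 122 and 139 on SH-SY5Y arrays. SK-N-AS was highest, BE(2)-C second, and SH-SY5Y and KELLY overlapped at the bottom. SK-N-AS exceeded BE(2)-C by 3.88 on the log2 scale (SE 0.09, adjusted p = 2.33e-22, centred 3.67), and BE(2)-C exceeded NGP by 2.13 (SE 0.09, adjusted p = 7.19e-17, centred 1.51). The TIMP1 promoter (chrX:47582186-47582435, plus strand, GRCh38.p14) is given for the gene with the widest range in its group, and its capitals are GC box matches on the other strand.
TIMP1: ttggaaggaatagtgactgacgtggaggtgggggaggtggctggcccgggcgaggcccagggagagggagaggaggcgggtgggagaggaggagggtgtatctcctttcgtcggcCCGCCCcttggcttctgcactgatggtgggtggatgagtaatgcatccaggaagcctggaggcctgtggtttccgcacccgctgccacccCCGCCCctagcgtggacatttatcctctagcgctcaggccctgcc

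MMP14, the membrane-bound collagenase that activates MMP2, read 1112, 986 and 1091 on SK-N-AS arrays, 411, 374 and 350.5 on BE(2)-C arrays, 72.2, 76.0 and 80.2 on NGP arrays, 63.9, 74.5 and 67.0 on KELLY arrays, and 58.8, 43.9 and 48.6 on SH-SY5Y arrays. The order on the deposited scale was that of TIMP1, with SK-N-AS and BE(2)-C on top, and NGP and KELLY overlapping. SK-N-AS exceeded BE(2)-C by 1.49 on the log2 scale (SE 0.10, adjusted p = 2.12e-12, centred 1.28), and BE(2)-C exceeded NGP by 2.30 (SE 0.10, adjusted p = 4.2e-16, centred 1.68).

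TIMP3, an inhibitor that binds to the matrix, read 574, 585 and 628 on SK-N-AS arrays, 483, 442 and 407 on BE(2)-C arrays, 118, 120.4 and 116 on NGP arrays, 70.9, 73.4 and 75.7 on SH-SY5Y arrays, and 38.5, 31.2 and 35.0 on KELLY arrays. No ranges overlapped in this probe set, SK-N-AS and BE(2)-C were high, and KELLY was lowest. SK-N-AS minus BE(2)-C was 0.43 on the log2 scale (SE 0.09, adjusted p = 0.000217, centred 0.21), short of a doubling, and SH-SY5Y exceeded KELLY by 1.05 (SE 0.09, adjusted p = 3.26e-10, centred 1.27). SH-SY5Y and KELLY were both below the filter, and in the other 2 TIMP3 probe sets they averaged 35.0 and 34.7, and 41.0 and 38.2, so TIMP3 as lower in KELLY than in SH-SY5Y rests on the probe set used. TIMP2 and MMP2, the gelatinase, were lowest in KELLY on both scales with the probe sets used, at 638 ± 31.0 and 402 ± 26.04, and MMP2 averaged 3108 ± 226 in SK-N-AS and 2742 ± 99.7 in BE(2)-C, whose difference was 0.18 on the log2 scale (SE 0.11, adjusted p = 0.137, centred -0.03).

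Between the 4 other lines the members were also compared in 6 pairs. BE(2)-C was above SH-SY5Y for 28 members and below it for 4 (53.6% and 2.58% of all tested genes), which became 13 and 5 after centring (7.42% and 9.63%). Against KELLY, BE(2)-C was higher for 19 and lower for 4 (39.4% and 3.49%), and after centring for 11 and 11 (8.56% and 9.30%). NGP was lower than BE(2)-C for 15 and higher for 8 (26.6% and 5.33%), with 13 and 11 after centring (9.28% and 10.5%). NGP was above SH-SY5Y for 16 and below for 1 (18.9% and 4.27%; centred 10 and 2, 7.95% and 8.54%). NGP was above KELLY for 12 and below for 4 (11.8% and 4.56%; centred 7 and 6, 7.04% and 7.35%), and KELLY was above SH-SY5Y for 12 and below for 5 (10.6% and 5.43%; centred 9 and 8, 7.26% and 7.95%).

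SH-SY5Y was marked as higher by 0 members in limma (0.337% of all tested genes; 0 at an unadjusted p under 0.05 with no fold minimum) and as lower by 5 members, COL5A1, COL6A1, COL6A3, NID2 and LOXL1 (3.98%), of which COL6A1, NID2 and LOXL1 stayed after centring (0.783%). KELLY was marked as lower by 3, NID1, LUM and TIMP3 (1.74%), of which LUM and TIMP3 stayed (0.908%). The KELLY count was 0 with 16 in place of 1 added before the logarithm, and 1 when probe sets were averaged or those that match related transcripts were left out. BE(2)-C was marked as higher by LAMA4 and FBN1 (3.58%), joined by BGN after centring (1.21%), and as lower by FN1 (0.579%; centred 1.46%). NGP was marked as higher by LOX alone (1.80%), and KELLY by 0 members on the deposited scale (0.501%; 2 at an unadjusted p under 0.05 with no fold minimum) and by PLOD2 alone after centring (1.12%).

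Among probe sets above the filter, the choice seldom changed which line was brightest. Of 87 other probe sets above the filter, for 32 of the members, 82 had the same brightest line as the one used. The 5 exceptions belonged to COL6A1, COL6A2, LAMB1, LOX and TIMP2. Probe sets below the filter were not counted. Some of them differed in their brightest line, among them probe sets of COL12A1, COL5A2, COL6A1, COL6A2, HSPG2, FBN1, VCAN and TIMP1. That of TIMP1, for example, averaged 76.0 in BE(2)-C and 70.7 in SK-N-AS. The same brightest line does not mean the same calls, as the AGRN, LAMA4 and TIMP3 values above show. The members hold 4 pairs of neighbours in the RefSeq gene order, LUM with DCN, COL4A1 with COL4A2, COL3A1 with COL5A2 and COL6A1 with COL6A2. COL3A1 and COL5A2 differed in their spread, as the former spanned 9.56 and the latter 0.64 on the log2 scale over the line means.

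Matrix genes outside the 45 were also followed in 5 lists. SK-N-AS was marked as higher by 3 of 12 tested other collagens (1 after centring), 7 of 24 other laminins, glycoproteins and proteoglycans (5), 2 of 18 genes of collagen folding and trimming (2), 6 of 16 other proteases and inhibitors (5) and 11 of 22 matrix receptors (9), beside the 12.9% and, centred, 5.85% of all tested genes given above. COL4A5, a minor collagen IV chain, averaged 1170.0 ± 21.9 in SK-N-AS, the other lines being at 17.6 ± 1.05 or below. EFEMP1, a fibulin, averaged 3749 ± 177 there and at most 18.6 ± 1.52 in another line. SERPINH1, the collagen chaperone HSP47, averaged 4036 ± 149 in SK-N-AS and 723 ± 51.1 in BE(2)-C, the next line.

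The receptor CD44, which binds hyaluronan, averaged 5769 ± 231 in SK-N-AS and 58.6 ± 7.02 in BE(2)-C, a difference of 6.60 on the log2 scale (SE 0.12, adjusted p = 3.22e-24, centred 6.39). The syndecan SDC4 averaged 4736 ± 106 in SK-N-AS and was lowest in NGP at 16.2 ± 1.97, and the plasminogen activator PLAT 4309 ± 508 in SK-N-AS and 1647 ± 227 in BE(2)-C. Others were highest elsewhere. RELN, reelin, averaged 4142 ± 352 in BE(2)-C against 585 ± 52.8 in SK-N-AS, and ADAMTS3, a procollagen peptidase, 1685 ± 19.8 against 514 ± 28.4. In NGP, COL16A1 averaged 589.6 ± 62.7 against 104 ± 11.0 in SK-N-AS, and the protease inhibitor SERPINE2 2579 ± 227 against 112 ± 13.2.

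Markers of cell types moved between the lines as well. The summed intensity of the 9 adrenergic neuroblast markers was 16438 to 18335 in SK-N-AS and 25585 to 59946 in the others, with 7 of the 9 above the filter in SK-N-AS and all 9 in each other line. CHGA, chromogranin A, averaged 53.3 ± 8.22 in SK-N-AS and 5858 ± 491 or more elsewhere. Of 8 fibroblast markers, 3 (PDGFRA, PDGFRB and THY1) passed the filter in some line, and the summed intensity of all 8 was 3276 to 3465 (SK-N-AS), 2939 to 3105 (BE(2)-C), 1764 to 1973 (NGP), 808 to 906 (SH-SY5Y) and 435 to 498 (KELLY). DPT, TCF21, PDPN, MEOX1 and FAP stayed below the filter in all 5 lines. Of the 6 epithelial markers, 4 were above it in SK-N-AS, with a sum over all 6 of 12933 to 14177 against 235 to 703 elsewhere, and KRT18, a keratin, averaged 9534 ± 331 there. The leukocyte sum was 1229 to 1333 in SK-N-AS and 212 to 362 elsewhere. The endothelial sum was 499 to 568 in SK-N-AS, 641 to 684 in BE(2)-C and 252 to 391 in the other lines. The Schwann cell sum was 276 to 286, 459.8 to 481 and 153 to 229 in the same order. Only 3 leukocyte, 4 endothelial and 2 Schwann cell markers passed the filter in some line. All sums are on the deposited scale, where SK-N-AS and BE(2)-C arrays were brightest. The part of the markers in the matrix results was not tested.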

How the data were processed

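Total RNA of 5 established human neuroblastoma lines, with ERCC external controls added at lysis per the labels' protocols, was measured on 15 arrays, 3 per line. The authors' deposited values are intensity values on a linear scale, 1 per probe set and array. Per the submitters' processing notes they come from MAS5. Version, scaling and normalization: not given in the sources used here. The table held 49494 probe sets, of which 45277 named 1 gene, 1333 named several and were not used, and 2884 were unnamed or controls. The columns all mapped to a sample by their labels.

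Each gene was read from the probe set with the highest mean intensity. Values were transformed as log2(intensity + 1). Such a difference understates the change of dim genes. Genes whose highest line mean was at or above 6.35 on the log2 scale (an intensity of 80.6, the median of all values) were tested. All 12776 tested genes and 15 arrays entered 1 fit in limma 3.58.1 under R 4.3.3, with a mean for each line and an intensity trend, and the 10 pairs of lines were contrasted, with Benjamini-Hochberg adjustment within a contrast over all tested genes. A difference was called at an adjusted p under 0.05 with a log2 difference of 1 or more either way. The fit was repeated after centring each array on its median. For arrays, their number limits the precision. The calls were tested on simulated data.

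The members, the lists and the tests were chosen with earlier results of these data known. By rule, values of every array are given for the 2 tested members with the widest range of line means in each of the 9 role groups (1 where only 1 was tested) and for members marking a line other than SK-N-AS, and 2 called genes with the widest range are named from each of the 5 lists of other matrix genes. All other members given with values or calls of their own (among them COL1A1, COL4A1, COL4A2, COL5A2, COL6A2, COL12A1, COL18A1, LAMB1, LAMC1, HSPG2, AGRN, SPARC, BGN, DCN, LOXL3, P4HA1, PLOD1, TIMP2 and MMP2) were picked after seeing their values. All 45 symbols were found in the RefSeq table of GRCh38.p14, and 34 had a promoter in its promoter table, from which sequences were read. Some genes on the lists are not reported here. Alternatives were centred arrays, quantile normalization, an added value of 16, another filter or none, other probe sets, a fit without the trend, a replicate block, and leaving out each array in turn.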

Additional observations from a re-analysis of the deposited data

How the results depend on the processing

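Of 32 counts of members, centring moved 16 by over 1.5 times, quantile normalization 13, averaging the probe sets of each gene 8, leaving out probe sets that can match related transcripts 5, an added value of 16 4, an upper-quartile filter 3 and the probe set with the highest mean log2 value, an alternative chosen after seeing the data, 2. No filter and no intensity trend moved 0 each. The count of members marking SK-N-AS as higher was 20 and no alternative moved it by that much. The replicate numbers do not pair the samples: deviations of arrays with the same number correlated from -0.22 to 0.23 (5 of 30 pairs over 0.1) and those with different numbers from -0.23 to 0.37 (8 of 60). With the replicate block, 20 members marked SK-N-AS as higher and 0 of the 32 counts moved.

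After centring, members higher in the second line were 3 for SK-N-AS against SH-SY5Y, 5 against NGP and 7 against KELLY, 10 for SH-SY5Y against NGP and 13 against BE(2)-C, and 11 for BE(2)-C against KELLY. Members higher in the first line were 2 for SH-SY5Y against NGP, 8 for SH-SY5Y against KELLY, 7 for NGP against KELLY and 11 for BE(2)-C against KELLY. Members marking a line as lower were 2 for SK-N-AS and 3 for SH-SY5Y, those marking it as higher 0 for NGP and 1 for KELLY, and 0 members were higher and 1 was lower between the classes. With quantile normalization the counts higher in the second line were 2 (SK-N-AS against SH-SY5Y), 4 (SK-N-AS against KELLY), 14 (SH-SY5Y against BE(2)-C), 7 (NGP against KELLY) and 8 (BE(2)-C against KELLY), and in the first line 2 (SH-SY5Y against NGP) and 12 (BE(2)-C against KELLY). Marking counts were 1 lower in SK-N-AS, 3 lower in SH-SY5Y, 0 higher in NGP, 1 higher in KELLY, and 0 higher and 1 lower between the classes. With 16 added, 2 members were higher in SH-SY5Y than in KELLY, and marking counts were 3 lower in SH-SY5Y, 0 higher in NGP and 0 lower in KELLY. With the upper-quartile filter, which left 34 members, 0 were higher in SH-SY5Y than in SK-N-AS, and 0 marked NGP and 1 BE(2)-C as higher. With the mean of probe sets (39 members), the counts higher in SH-SY5Y were 0 against SK-N-AS, 0 against NGP, 1 against BE(2)-C and 2 against KELLY, 5 were higher in NGP than in BE(2)-C, and marking counts were 0 higher in NGP, 0 lower in BE(2)-C and 1 lower in KELLY. Without probe sets that can match related transcripts (35 members), counts higher in SH-SY5Y were 0 against NGP, 2 against BE(2)-C and 3 against KELLY, and 0 marked BE(2)-C and 1 KELLY as lower. With the highest mean log2 value (41 members), 0 were higher in SH-SY5Y than in SK-N-AS and 0 marked NGP as higher. The cause of these shifts was not tested.

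For 52 genes, the difference between the brightest and dimmest line was refitted in 25 settings, 15 of which left out 1 array. Of the 1280 values this gave, 1264 kept direction and call, 13 lost the call and 3 turned. COL5A2 turned in BE(2)-C minus SH-SY5Y from 0.64 to -0.50 with centring and -0.23 with quantile normalization. LOX turned in NGP minus BE(2)-C from 2.50 to -0.45 with the highest mean log2 probe set. Both lines of a gene were picked from these same data, and the settings share arrays. A kept direction was therefore close to fixed in advance and is no independent support. Leaving out each array in turn, the count higher in SH-SY5Y ran from 1 to 2 against SK-N-AS (2 without SK-N-AS replicate 1 or SH-SY5Y replicate 2) and from 1 to 2 against NGP (2 without SH-SY5Y replicate 2 or NGP replicate 2), members marking SK-N-AS as lower from 0 to 1 (1 without SK-N-AS replicate 1 or SH-SY5Y replicate 2), and members lower between the classes from 0 to 1 (1 without SH-SY5Y replicate 1 or replicate 2). The count marking SK-N-AS as higher ran from 20 to 21, and no other count moved by over 1.5 times. Dim genes, near the filter, limit what the arrays can separate.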
